A study of Mus musculus with 6 samples.

Results

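The lysosomal hydrolase and proton pump genes described here are 51 of the 26100 rows of the count table. They are 28 genes chosen by symbol, which encode enzymes, carriers, membrane proteins and regulators of the lysosome, and 23 rows whose symbol starts with Atp6v, nearly all of them subunits of the vacuolar proton pump. Of the 51, 48 passed the filter on low counts and were tested, and Atp6v1e2, Atp6v1g3 and Atp6v1fnb did not pass it. Atp6v1fnb belongs to the set by its prefix only and is not counted below as a pump subunit. Whole lung RNA was sequenced from 3 Clec7a knockout (KO) mice and 3 wild-type (WT) mice, all of which had received bleomycin into the airways and were sampled at day 14. Clec7a encodes dectin-1, a beta-glucan receptor of myeloid cells, and bleomycin is a DNA-damaging drug used to induce lung scarring in mice. The strain, sex and age of the mice and the construction of the knockout allele are not given in the sources used, and lungs without bleomycin were not analysed here. In whole lung, fewer cells of a type and less RNA per cell cannot be told apart.

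Lysosomes are acidic compartments in which glycosaminoglycans, glycoproteins, glycolipids and other lipids are taken apart by hydrolases that work in a fixed order, so that the loss of a single enzyme leaves its substrate to accumulate. Their acidity comes from the vacuolar ATPase (V-ATPase), a rotary pump whose cytosolic V1 part hydrolyses ATP and whose membrane V0 part carries protons. Many lysosomal genes carry in their promoters the CLEAR element, with the core letters CACGTG, to which the transcription factor TFEB binds. In the lung, macrophages and the surfactant-storing type 2 alveolar cells are rich in lysosomes or lysosome-related organelles.

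Promoter sequence was available for 41 of the 51 members, from 250 bases before to 50 bases after the RefSeq start of each gene on GRCm38.p6. CACGTG, which reads the same on both strands, was found in 11 of these 41 (26.8%), against 2187 of all 27025 promoters of the same length (8.09%). The longer form TCACGTGA, which contains CACGTG and is also its own reverse complement, was found in 5 of the 41 (12.2%), against 1.12% of all promoters. The longest form searched, which adds a base at each end of TCACGTGA, was found in 0 of the 41. It was found in 100 of all 27025 promoters (0.37%). For so rare a form, 0 of 41 cannot show a difference from all promoters. The 4 stretches of 80 bases below are shown because they hold the core CACGTG in promoters of the membrane, pump and hydrolase groups. None of the 4 holds TCACGTGA. Capitals mark CACGTG, and the strand is that of the gene.
Lamp1: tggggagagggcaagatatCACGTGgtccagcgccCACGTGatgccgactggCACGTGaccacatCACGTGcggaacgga
Atp6v0b: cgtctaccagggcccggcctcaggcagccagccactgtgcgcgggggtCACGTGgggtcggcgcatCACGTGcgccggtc
Glb1: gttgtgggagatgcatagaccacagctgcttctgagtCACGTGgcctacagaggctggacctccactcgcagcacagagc
Gaa: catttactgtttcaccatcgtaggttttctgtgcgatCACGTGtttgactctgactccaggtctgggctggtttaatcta
The stretch of Lamp1, chr8:13159081-13159160 on the plus strand, held 4 matches in the 80 bases just before the start. That of Atp6v0b, chr4:117887334-117887413 on the minus strand, held 2 matches, and those of Glb1 (chr9:114400993-114401072, plus strand) and Gaa (chr11:119267786-119267865, plus strand) held 1 each. A match describes the letters only and does not show that a factor bound there.

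The 6 libraries held 31052936 to 34451956 counts, of which 0.863% to 1.21% fell on the members. Clec7a itself had 3.60, 6.85 and 2.84 CPM (counts scaled to library size) in KO libraries 1, 2 and 3, against 60.6, 84.0 and 197 CPM in WT libraries 1, 2 and 3, the order used for CPM values throughout. Replicate 1 stood apart in both genotypes: mitochondrial transcripts took 7.34% of the counts in KO replicate 1, against 2.69% to 3.87% in the other 5 libraries, and WT replicate 1 had the highest summed airway secretory markers. Fold changes that moved most with these libraries are also given without them. Fold changes are log2 values of KO minus WT from edgeR's quasi-likelihood test on counts, with the standard error (SE), and a gene is called where the Benjamini-Hochberg adjusted p over all 16633 tested genes is under 0.05.

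Most lysosomal genes had small fold changes between the genotypes. Of the 48 tested members, 25 had positive and 23 negative fold changes, with a median of 0.02 beside -0.01 for all tested genes. Within 0.5 log2 units of 0 lay 41 of the 48, while 68.2% of all genes did. The 2 sets are not alike in precision, with a median SE of 0.27 for the members and 0.33 for all genes. edgeR called 0 members, as it called 0.0% of all genes, and the smallest adjusted p among the members was 0.203. That was also the smallest adjusted p in edgeR over all tested genes. Clec7a itself, the gene knocked out, had the same edgeR adjusted p of 0.203 and was not called. At an unadjusted p under 0.05, 0 members were higher in KO (5.95% of all genes) and 2 were lower (5.89% of all genes), and these 2 were Hgsnat and Grn. No KO value overlapped with WT for 4 members: the KO libraries were all higher for Ids and Atp6v0e2 (2 of 48, beside 9.81% of all genes) and all lower for Hgsnat and Grn (2 of 48, beside 11.3%). DESeq2 called 0 members higher (1.91% of all genes) and 1 lower, Hgsnat (1.73% of all genes). limma-voom called 0 (0.0% of all genes). With sample weights limma-voom called Atp6v1b1 and Atp6v0e2 higher (7.24% of all genes) and Galns, Hgsnat, Npc1 and Grn lower (6.11% of all genes). Leaving out both replicate 1 libraries, edgeR called 1 member lower, Hgsnat, beside 0.167% of all genes.

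**Figure D1:**
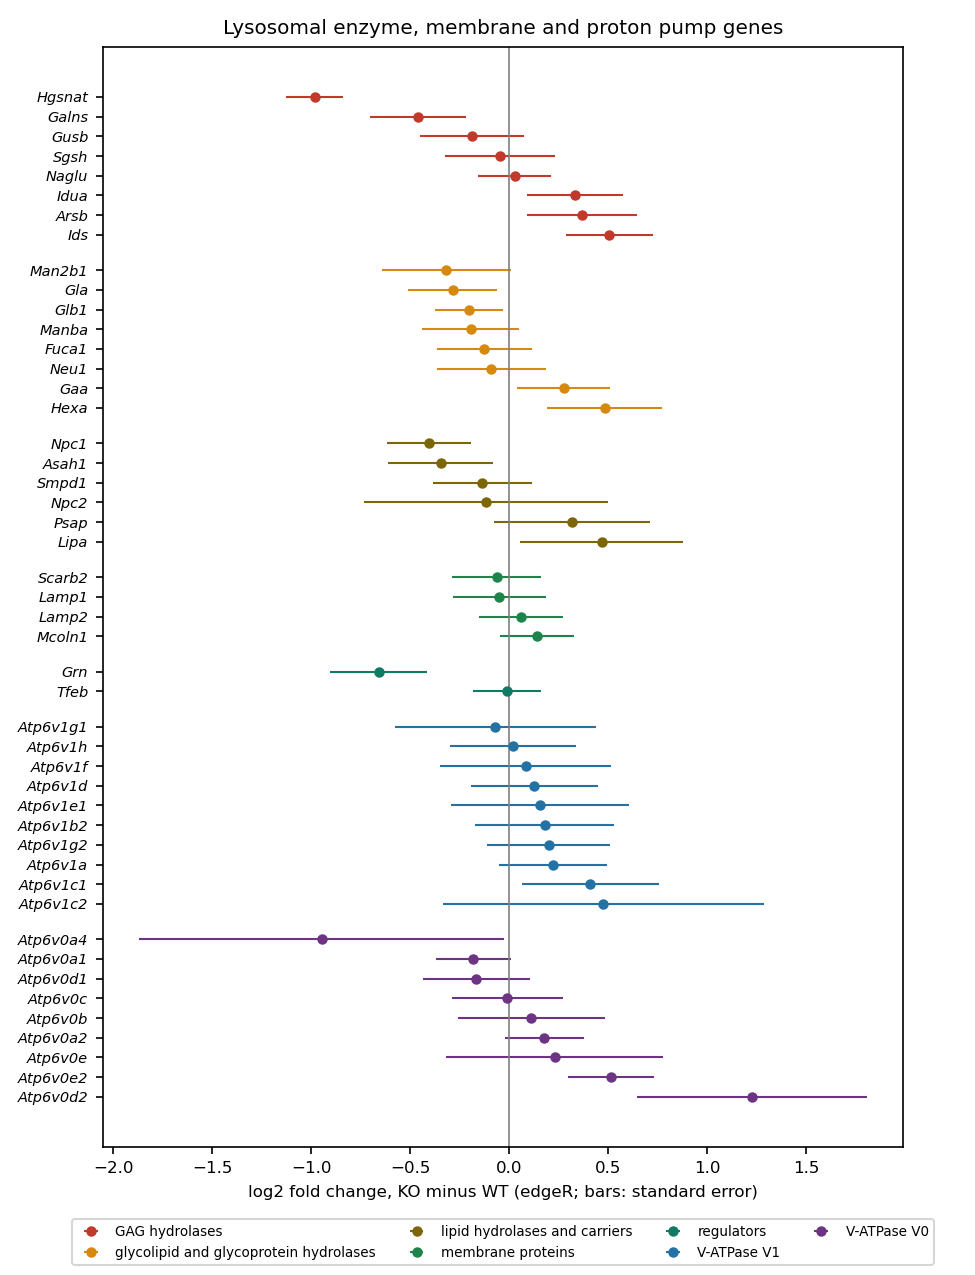
Fold change of each tested member, KO minus WT on a log2 scale (horizontal axis), with the SE of edgeR's fit as a line, for the tested members other than the sparse Atp6v1b1, grouped by role (vertical axis, colours). Hgsnat lies at -0.98 and Grn at -0.66, while Atp6v0d2 lies farthest to the right at 1.23 with an SE of 0.58.

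The enzymes of glycosaminoglycan breakdown strip sugars and sulfate groups one by one from the ends of heparan, dermatan, chondroitin and keratan sulfate. Among the 8 members, 4 had positive and 4 negative fold changes, with a median of -0.01, and 1 had an unadjusted p under 0.05. Hgsnat, the membrane enzyme that acetylates the terminal glucosamine of heparan sulfate and whose loss causes Sanfilippo syndrome type C, was the member with the smallest p. Its row (ENSMUSG00000037260, GRCm38 chr8:25944453-25976753, minus strand, protein coding) held 1637, 1797 and 1799 counts in the KO libraries, against 3473, 3501 and 3531 in the WT libraries. As CPM these were 51.7, 53.5 and 55.5 in KO and 107, 108 and 103 in WT. The groups did not overlap, and the spread within each was small, with a mean of 53.6 ± 1.88 CPM in KO and 105.8 ± 2.41 CPM in WT (SD, n = 3 each).

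The fold change of Hgsnat was -0.98 ± 0.14 (95% interval -1.33 to -0.64), which is 1.97-fold lower in KO. In edgeR this difference had an unadjusted p of 3.13e-04 and an adjusted p of 0.203, equal to the smallest over all tested genes. The adjusted p was 8.91e-06 in DESeq2 and 0.0072 in limma-voom with sample weights, and edgeR without both replicate 1 libraries gave 0.0434 for a fold change of -0.94. With each library left out in turn the fold change stayed between -1.01 and -0.96. Beside these stood deposited FPKM values (fragments per length of gene and depth of library) of 18.4, 19.8 and 20.4 in the 3 KO columns, whose names carry no replicate number known to the labels, and 35.5, 38.4 and 37.0 in WT.

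**Figure D2:**
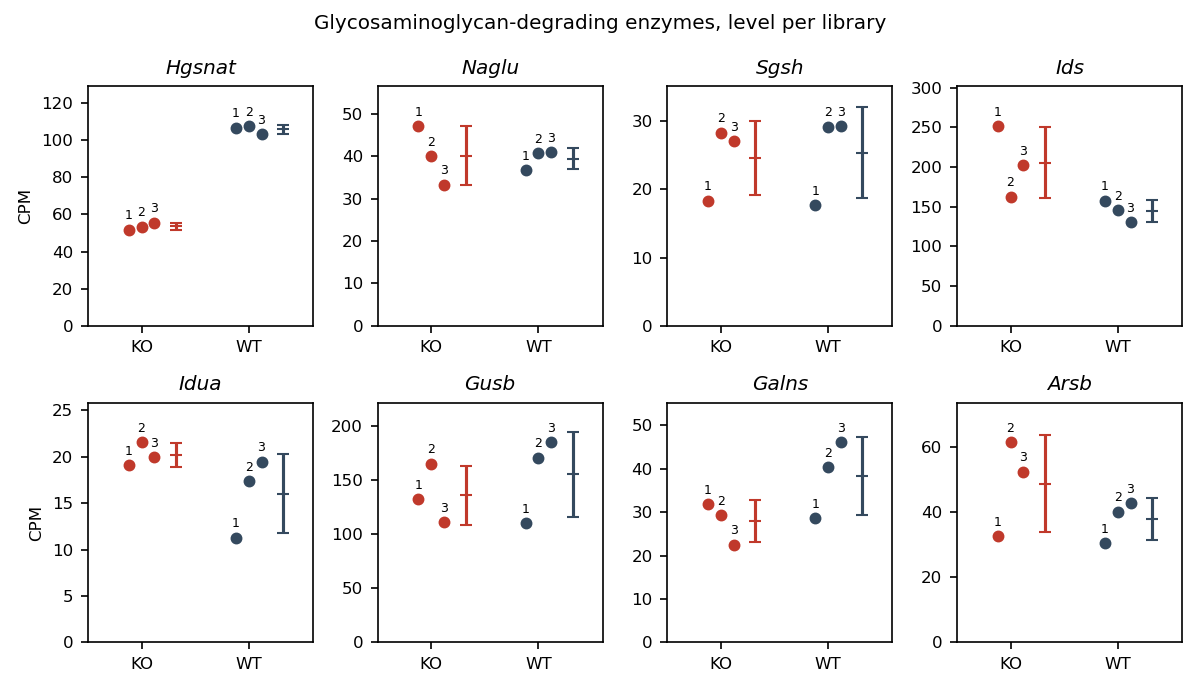
CPM of each of the 8 glycosaminoglycan hydrolase genes in every library (points numbered by replicate, KO left of WT), with the mean and SD of each group as a bar beside the points. The 3 KO points of Hgsnat, at 51.7 to 55.5 CPM, lie close together and below the WT points at 103 to 108 CPM, while the groups overlap for the other genes except Ids.

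Genes beside Hgsnat on chromosome 8 had smaller fold changes. Of the 10 nearest tested protein-coding genes, 5 on each side within 180 and 214 kb, 5 had positive and 5 negative fold changes, from -0.35 to 0.64. The only one with an unadjusted p under 0.05 was Thap1, at 9.78 CPM in KO and 6.26 CPM in WT on average (fold change 0.64 ± 0.22, adjusted p 0.339 in edgeR). Pomk, the nearest of them, had a fold change of 0.13 ± 0.19.

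**Figure D3:**
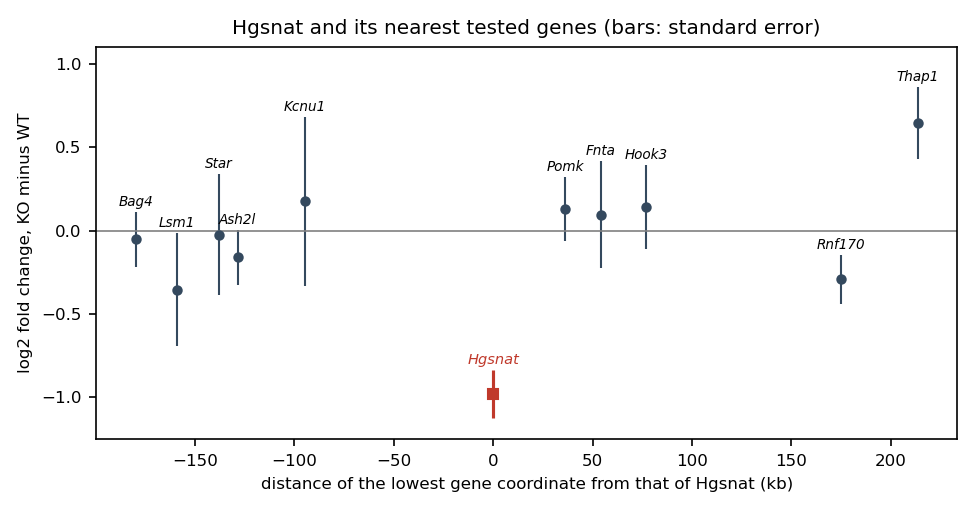
Fold change, KO minus WT on a log2 scale with SE (vertical axis), of Hgsnat and the 5 nearest tested protein-coding genes on each side, by distance in kb (horizontal axis). Hgsnat at -0.98 lies below its neighbours, which span -0.35 to 0.64.

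The members that act on heparan sulfate beside Hgsnat had fold changes from -0.19 to 0.51, while Arsg, which is not a member, was lower at an unadjusted p under 0.05. Ids, the iduronate sulfatase of heparan and dermatan sulfate, had 252, 163 and 202 CPM in KO and 157, 146 and 131 CPM in WT. Every KO value of Ids was above every WT value, and the nearest pair, KO replicate 2 and WT replicate 1, differed little (fold change 0.51 ± 0.22, unadjusted p 0.0548, adjusted p 0.433 in edgeR). Sgsh, the sulfamidase that acts just before Hgsnat, had a fold change of -0.05 ± 0.28, with 18.3, 28.3 and 27.0 CPM in KO and 17.7, 29.1 and 29.2 CPM in WT. Naglu, the glucosaminidase that acts just after it, had 0.03 ± 0.19, with 47.1, 40.0 and 33.3 CPM in KO and 36.7, 40.7 and 40.9 CPM in WT. The groups overlapped for both. Idua, the iduronidase, had 0.33 ± 0.24, and Gusb, the beta-glucuronidase, had 132, 165 and 111 CPM in KO and 111, 171 and 185 CPM in WT, with a fold change of -0.19 ± 0.26 (-0.39 to -0.05 with each library left out). Arsg, a heparan sulfate sulfatase that is not a member, had 9.32, 8.51 and 7.03 CPM in KO and 12.1, 16.1 and 16.8 CPM in WT (-0.86 ± 0.24, unadjusted p 0.00922, adjusted p 0.269 in edgeR). All 3 KO values of Arsg were below the WT values.

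The remaining pair both act on chondroitin sulfate. Galns, a sulfatase of keratan and chondroitin sulfate, had 31.9, 29.3 and 22.5 CPM in KO and 28.6, 40.4 and 46.1 CPM in WT (fold change -0.46 ± 0.24). Arsb, the sulfatase of dermatan and chondroitin sulfate, had 32.5, 61.3 and 52.4 CPM in KO and 30.5, 40.1 and 42.8 CPM in WT (0.37 ± 0.28). For both, WT replicate 1 was the lowest WT value and the groups overlapped.

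Of the 8 hydrolases of glycolipids and glycoproteins, 2 had positive and 6 negative fold changes, with a median of -0.16, and 0 had an unadjusted p under 0.05. All 8 lay within 0.5 log2 units of 0. Hexa, the alpha subunit of beta-hexosaminidase and the gene of Tay-Sachs disease, was the most abundant per length at 88.9 FPKM on average. It had 244, 246 and 152 CPM in KO and 115, 148 and 197 CPM in WT, so that KO replicate 3 fell within the WT range (fold change 0.48 ± 0.29). Man2b1, the lysosomal alpha-mannosidase, had 167, 276 and 176 CPM in KO and 170, 273 and 329 CPM in WT, and the groups overlapped widely (-0.32 ± 0.33, from -0.58 to -0.10 with each library left out). Gaa, which breaks down glycogen, was the other positive member (0.27 ± 0.24), with 67.0, 97.5 and 98.5 CPM in KO and 56.4, 80.7 and 80.3 CPM in WT. The alpha-galactosidase gene Gla (-0.29 ± 0.23), the beta-galactosidase gene Glb1 (-0.20 ± 0.17) and the beta-mannosidase gene Manba (-0.20 ± 0.24) were followed by the fucosidase gene Fuca1 (-0.13 ± 0.24) and the sialidase gene Neu1 (-0.09 ± 0.27).

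Among the 6 genes of lipid breakdown and export, 2 had positive and 4 negative fold changes, with a median of -0.13, and 0 had an unadjusted p under 0.05. Psap, which encodes prosaposin, the precursor of small proteins that present lipids to hydrolases, was the most abundant of all members per length at 819 FPKM on average. It had 2940, 2785 and 1743 CPM in KO and 1208, 2093 and 2689 CPM in WT (fold change 0.32 ± 0.39). Its highest and second-highest values were both from KO lungs, but KO replicate 3 was below 2 of the WT values. The fold change of Psap was 0.06 without WT replicate 1 and -0.07 without both replicate 1 libraries. Npc2, the soluble cholesterol carrier, had 1401, 608 and 936 CPM in KO and 2072, 606 and 517 CPM in WT. Replicate 1 was the highest library in each genotype for Npc2, and the direction of its fold change (-0.12 ± 0.62) depended on it, with 0.47 without both replicate 1 libraries and 0.80 without WT replicate 1. Npc1, the membrane partner that passes cholesterol out of the lysosome, had 122, 129 and 118 CPM in KO and 122.5, 184 and 183 CPM in WT (-0.41 ± 0.21, unadjusted p 0.0977, adjusted p 0.508 in edgeR). The acid ceramidase gene Asah1 had -0.35 ± 0.26 and the acid sphingomyelinase gene Smpd1 had -0.14 ± 0.25. Lipa, the acid lipase of cholesteryl esters, had 281, 247 and 139 CPM in KO and 86.0, 186 and 211 CPM in WT (0.47 ± 0.41).

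The membrane proteins were the most even group, with fold changes from -0.06 to 0.14 and a median of 0.00 over 4 genes. Lamp1, a heavily glycosylated protein that lines the lysosome, had 1156, 958 and 841 CPM in KO and 973, 1039 and 1048 CPM in WT (fold change -0.05 ± 0.23, 95% interval -0.61 to 0.51). Lamp2, its relative that also serves chaperone-mediated autophagy, had 732, 632 and 552 CPM in KO and 607, 623 and 610 CPM in WT (0.06 ± 0.21, 95% interval -0.45 to 0.57). The WT values of both lay inside the wider range of the KO values. Scarb2, the receptor that carries glucocerebrosidase to the lysosome, had -0.06 ± 0.23, and the cation channel gene Mcoln1 had 0.14 ± 0.19. The direction of Lamp2 turned to -0.05 without both replicate 1 libraries.

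Tfeb, the transcription factor of the CLEAR element, did not differ between the genotypes beyond its error, at 20.0, 20.9 and 17.6 CPM in KO and 18.8, 18.8 and 21.3 CPM in WT. Its fold change was -0.01 ± 0.17, with a 95% interval of -0.42 to 0.40. The 11 members with CACGTG in their promoter, Lamp1, Atp6v0b, Glb1 and Gaa among them, had fold changes from -0.29 to 0.27, 6 positive and 5 negative, and 0 had an unadjusted p under 0.05. Of the 30 members whose promoter held no match, 27 were tested, with fold changes from -0.95 to 0.60, and 1, Grn, had an unadjusted p under 0.05. Hgsnat is not in the promoter table.

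Grn encodes progranulin, a secreted and lysosomal glycoprotein that is abundant in macrophages and is needed for normal lysosomal enzyme activity. Its row (ENSMUSG00000034708, GRCm38 chr11:102430315-102437048, plus strand, protein coding) had 382, 381 and 301 CPM in KO and 429, 623 and 628 CPM in WT. All 3 KO values were below the WT values, and WT replicate 1 lay closest to them. The mean was 354.8 ± 46.3 CPM in KO and 560.3 ± 113 CPM in WT (SD, n = 3 each), 1.58-fold lower in KO, with a fold change of -0.66 ± 0.24. In edgeR the unadjusted p was 0.0322 and the adjusted p was 0.379, with an adjusted p of 0.200 in DESeq2 and 0.0187 in limma-voom with sample weights. Leaving out each library in turn gave fold changes from -0.82 to -0.55.

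Macrophage markers are given beside Grn and Hgsnat because both genes can be expressed in macrophages. edgeR called 0 of them. At an unadjusted p under 0.05, 5.95% of all genes were higher and 5.89% lower. Of 9 general macrophage markers 8 had negative fold changes, and 2 had an unadjusted p under 0.05, among them the integrin gene Itgam (-1.70). The summed level of these markers was nonetheless 4640 to 19506 CPM in KO and 4191 to 5674 CPM in WT, since the lysozyme gene Lyz2 made up most of it and reached 18786 CPM in KO replicate 1. Of 9 markers of perivascular interstitial macrophages 8 were negative and 5 had an unadjusted p under 0.05, with sums of 1029 to 1348 CPM in KO and 1364 to 2389 CPM in WT. Of 9 markers of scar-associated macrophages 5 were negative and 4 positive, and at an unadjusted p under 0.05 in edgeR 2 were lower and 1 higher. Their sums were 2930 to 7128 CPM in KO and 8670 to 11087 CPM in WT, of which Spp1 alone had 1108 to 3579 and 4514 to 7057 CPM. With each marker given equal weight, as the mean of log2 CPM centred on the 6 libraries, the groups overlapped. The values were then 0.37, 0.09 and -0.70 in KO and -0.10, -0.01 and 0.35 in WT. The groups also overlapped on this measure for the general macrophage markers. For the perivascular interstitial markers they did not, with -0.93, -0.69 and -0.39 in KO and 1.22, 0.51 and 0.28 in WT. Among 9 alveolar macrophage markers 6 were positive and 3 negative, and 3 were higher and 0 lower at an unadjusted p under 0.05 in edgeR. Their sums were 1716, 627 and 509 CPM in KO and 1615, 2016 and 1229 CPM in WT. With equal weight the values were 1.22, -0.24 and -0.50 in KO and -0.27, -0.04 and -0.16 in WT. Only KO replicate 1 lay above the WT values on that measure. None of these 4 lists had a marker at 0 in all libraries, and the part of such cells in the values of Grn and Hgsnat was not tested.

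The proton pump genes showed a pattern of libraries rather than of genotypes. Of the 22 V-ATPase subunit genes, 20 were tested, 15 with positive and 5 with negative fold changes, and 0 had an unadjusted p under 0.05. The median was 0.18 over 11 tested V1 genes and 0.11 over 9 V0 genes, and these medians were -0.26 and -0.29 without KO replicate 1 and 0.49 and 0.41 without WT replicate 1. Replicate 1 was the highest library within KO and also within WT for 13 of the 20, while this held for 27.4% of all genes and for 5 of the 28 members outside the pump. The summed level of the subunit genes was 2626, 1472 and 1372 CPM in KO and 2233, 1481 and 1489 CPM in WT. The 2 highest sums were thus the 2 replicate 1 libraries, and the other 4 libraries lay within a narrow range in both genotypes. Without both replicate 1 libraries the median fold change was 0.02 for both V1 and V0 genes.

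**Figure D4:**
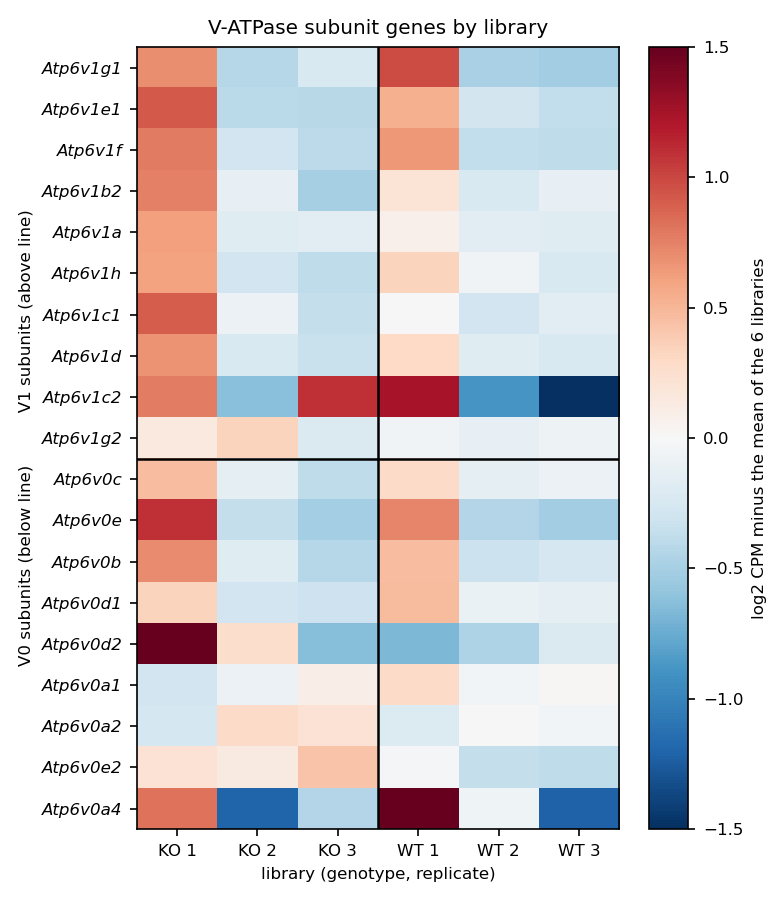
Level of 19 of the 20 tested V-ATPase subunit genes, without the sparse Atp6v1b1 (down the page), in each library (across, KO left of WT) as log2 CPM minus the mean of the gene over the 6 libraries, with the colour scale limited to 1.5 log2 units either way. The replicate 1 columns of both genotypes are the highest for most subunits, which was the case for 13 of the 20 genes.

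Most subunits are encoded by several paralogs, and for each of the 13 subunits the member with the highest mean FPKM was taken, a rule made after the values were seen. It leaves out Tcirg1, an a subunit gene that is not a member and whose FPKM was above that of Atp6v0a1 in 4 of the 6 columns. Of these 13 genes, 12 had replicate 1 highest in both genotypes, the exception being Atp6v0a1, and all 13 lay within 0.5 log2 units of 0 between the genotypes. Atp6v0c, the proton-carrying c subunit of the ring, was the most abundant pump gene per length at 262 FPKM on average. It had 436, 286 and 244 CPM in KO and 387, 287 and 299 CPM in WT, with a fold change of -0.01 ± 0.28. Atp6v1e1, a stalk subunit, had 214, 85.5 and 84.9 CPM in KO and 164, 93.5 and 87.5 CPM in WT (0.15 ± 0.45). Atp6v1g1, its stalk partner, had 170, 78.4 and 89.5 CPM in KO and 207, 74.8 and 73.1 CPM in WT (-0.07 ± 0.51). Atp6v0e, a small membrane subunit, had 216, 78.3 and 70.8 CPM in KO and 167, 74.4 and 69.8 CPM in WT (0.23 ± 0.55). For these 3 genes the 4 libraries outside replicate 1 differed little, and replicate 1 was far above them in both genotypes. The direction turned when a single library was left out: without KO replicate 1 the fold changes of Atp6v1e1 and Atp6v0e were -0.43 and -0.48, and without WT replicate 1 those of Atp6v1g1 and Atp6v0c were 0.61 and 0.14.

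Genes of shorter exon length were high in the replicate 1 libraries in general. Exon length here is the union of all annotated exons of a gene and can exceed the length of the transcript present. Over the 15241 tested genes with an annotated exon length, the rank correlation between exon length and the excess of replicate 1 over the other libraries was -0.41, and it was -0.34 over the 48 tested members, given as a description since genes of the same libraries are not independent. In the shortest length quintile of all genes, with a median of 1693 bases, replicate 1 was highest in both genotypes for 49.3%, and in the longest quintile for 11.0%. The 13 genes taken for the pump subunits had a median exon length of 4110 bases, close to the 4306 bases of all genes. Of these 13, 92.3% had replicate 1 highest in both genotypes. The length of the transcripts present was not measured, so these medians do not show that the pump transcripts were of ordinary length. The part of transcript length, RNA quality or cell content in this pattern was not tested.

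The catalytic head showed the same pattern. Atp6v1a, which encodes the ATP-hydrolysing A subunit, had 327, 187 and 189 CPM in KO and 224, 191 and 188 CPM in WT (fold change 0.22 ± 0.27). Atp6v1b2, the widely used B subunit, had 340, 185 and 143 CPM in KO and 233, 172 and 186 CPM in WT (0.18 ± 0.35). The fold changes of the other single or main V1 genes were 0.41 ± 0.35 for Atp6v1c1, 0.13 ± 0.32 for the shaft gene Atp6v1d, 0.08 ± 0.43 for Atp6v1f and 0.02 ± 0.32 for the regulatory subunit gene Atp6v1h. In V0, the proton-carrying c″ subunit gene Atp6v0b had 0.11 ± 0.37, the d subunit gene Atp6v0d1 -0.17 ± 0.27, and the a subunit genes Atp6v0a1 and Atp6v0a2 -0.18 ± 0.19 and 0.18 ± 0.20.

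Pump paralogs of restricted tissue use behaved less evenly. Atp6v0d2, the d subunit paralog of osteoclasts and macrophages (ENSMUSG00000028238, GRCm38 chr4:19876841-19922605, minus strand), had 287, 103 and 55.2 CPM in KO and 53.8, 62.3 and 74.2 CPM in WT. KO replicate 1 was far above the rest, KO replicate 2 was next, and KO replicate 3 fell within the WT range. The fold change was 1.23 ± 0.58 (unadjusted p 0.0749, adjusted p 0.468 in edgeR), 0.32 without KO replicate 1 and 0.22 without both replicate 1 libraries. Per length, Atp6v0d2 made up 53.4, 38.7 and 25.6% of the summed FPKM of the d paralogs in the 3 KO columns and 16.3, 25.1 and 29.1% in WT. KO replicate 1 also had the highest summed macrophage markers (19506 CPM), of which Lyz2 made up 18786 CPM, and the highest sum over 7 osteoclast markers (441 CPM, against 255 and 182 CPM in the other KO libraries and 242 to 284 CPM in WT), of which Ctsk and Acp5 made up 286 and 104 CPM. With each marker given equal weight, as the mean of log2 CPM centred on the 6 libraries, KO replicate 1 was not the highest on either list. It was at -0.15 for macrophage markers, against 0.08 and -0.58 in KO replicates 2 and 3 and -0.27, 0.37 and 0.56 in WT, and at 0.08 for osteoclast markers, against 0.41 and -0.21 in KO replicates 2 and 3 and -0.49, 0.06 and 0.14 in WT. Of the 7 osteoclast markers 4 were positive and none was at 0 in all libraries. Of 9 alveolar macrophage markers 6 were positive and 3 had an unadjusted p under 0.05, with sums of 509 to 1716 CPM in KO and 1229 to 2016 CPM in WT. With equal weight, KO replicate 1 was the highest on this alveolar list, at 1.22. The other values were -0.24 and -0.50 in KO replicates 2 and 3 and -0.27, -0.04 and -0.16 in WT. The part of the cells of these lists in the level of Atp6v0d2 was not tested.

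The a subunit, which decides in which membrane the pump sits, has 4 paralogs, of which Tcirg1 (the a3 subunit of osteoclasts and macrophages) is not a member and was added after the values were seen. Tcirg1 took 44.0, 47.9 and 36.0% of the summed FPKM of the a paralogs in the KO columns and 26.8, 47.9 and 52.4% in WT. Atp6v0a1 took 36.0, 33.3 and 41.7% in KO and 48.8, 34.9 and 33.9% in WT. The ranges of both overlapped between the genotypes, and together they were the larger share in every column. Atp6v0a4, the paralog of acid-secreting epithelia, had 9.95, 2.41 and 4.13 CPM in KO and 24.0, 5.38 and 2.39 CPM in WT, with WT replicate 1 highest (fold change -0.95 ± 0.92, and 0.50 without that library).

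Atp6v1c2, a C subunit paralog of lung and kidney epithelium, had 12.7, 4.79 and 15.8 CPM in KO and 17.5, 4.0 and 2.42 CPM in WT. It was high in WT replicate 1 and in KO replicates 1 and 3, and its share of the C paralogs was 11.7, 8.97 and 28.2% in the KO columns and 25.6, 8.43 and 4.98% in WT. The fold change was 0.48 ± 0.81, and 1.79 without WT replicate 1. Airway secretory markers, 7 genes of which 2 were positive and 5 negative, summed to 2530, 1810 and 4538 CPM in KO and 11860, 939 and 308 CPM in WT, so that WT replicate 1 was highest in them as well. Type 2 alveolar markers, 7 genes all with positive fold changes, summed to 18789, 3407 and 9757 CPM in KO and 9871, 2753 and 1865 CPM in WT. No marker of either list was at 0 in all libraries, and the part of these cells in the levels of Atp6v1c2 and Atp6v0a4 was not tested.

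**Figure D5:**
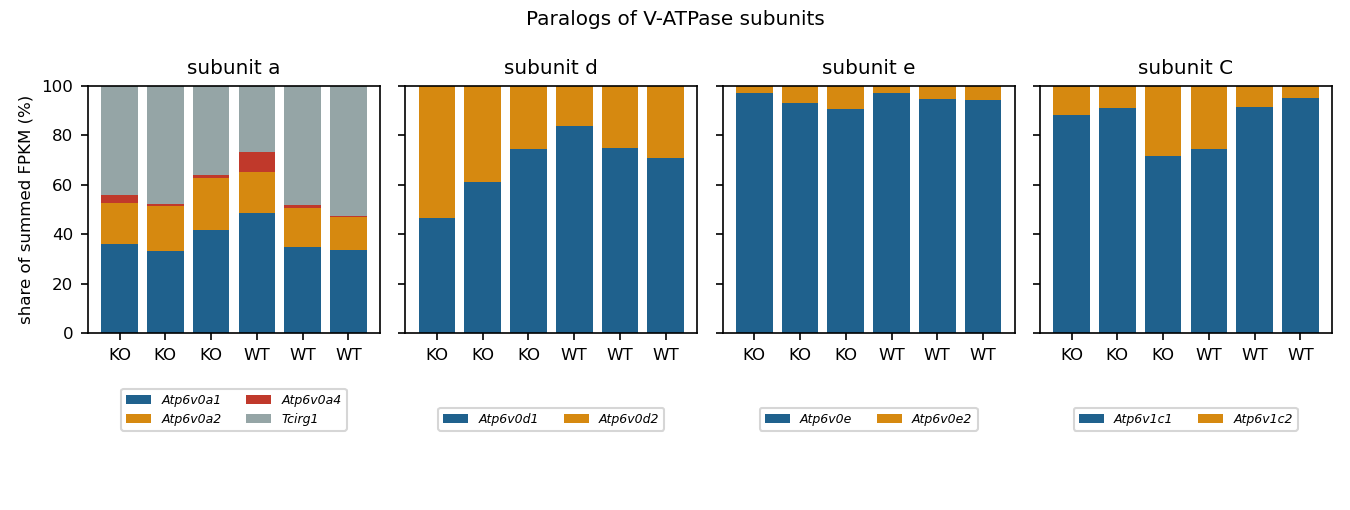
Share of each paralog in the summed FPKM of its V-ATPase subunit, in percent (vertical axis), as stacked bars for every FPKM column (KO left of WT) of the subunits a, d, e and C. The share of Atp6v0d2 spans 25.6 to 53.4% in KO and 16.3 to 29.1% in WT, so the groups overlap.

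Atp6v0e2, the minor paralog of the small e subunit, was one of the 2 members with every KO value above every WT value, at 13.4, 12.7 and 15.5 CPM in KO and 11.3, 8.98 and 8.81 CPM in WT. Its fold change was 0.51 ± 0.22 (unadjusted p 0.0508, adjusted p 0.426 in edgeR, 0.319 in DESeq2), and it made up 2.72, 6.92 and 9.20% of the e paralogs in the KO columns and 2.95, 5.26 and 5.50% in WT. Atp6v1b1, the B subunit of kidney intercalated cells and airway ionocytes, had 0, 19 and 24 counts in KO and 28, 0 and 0 counts in WT, so a count of 0 was found in both genotypes. Atp6v1g2, a G subunit of neurons, was steady at 2.91, 3.33 and 2.25 CPM in KO and 2.52, 2.40 and 2.48 CPM in WT. Atp6v1g3, a G subunit of the kidney, had 5, 3 and 10 counts in KO and 8, 0 and 0 counts in WT. Atp6v1e2, the E subunit of the testis, had 0 counts in every library, and Atp6v1fnb had 3 counts in WT replicate 3 and 0 elsewhere. Among 6 ionocyte markers, with sums of 24.1 to 39.7 CPM in KO and 15.8 to 30.4 CPM in WT, the defining transcription factor gene Foxi1 was at 0 in all libraries.

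Levels between genes were compared per length, as FPKM averaged over the 6 columns. The columns were not rescaled to a common sum. They summed to 503277 FPKM in a KO column and 489570 in WT replicate 1, against 377998 to 389904 in the rest. Columns of higher sum thus weigh more in these means. After Psap the most abundant members were Lamp1 (432 FPKM), Npc2 (294 FPKM), Atp6v0c (262 FPKM), Lamp2 (193 FPKM) and Grn (190 FPKM). The order of these means is not that of every column, since Npc2 had 407, 184 and 280 FPKM in KO and 563, 176 and 152 FPKM in WT, and lay below Atp6v0c in 3 of the 6 columns. Hgsnat, at 28.2 FPKM, was the 28th of the 51 members. Sgsh (5.60 FPKM) and Idua (5.24 FPKM) were the lowest of the hydrolases.

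The other genes of the lysosome, 97 genes from 6 lists, were balanced as well, with 51 positive and 46 negative fold changes and a median of 0.01. At an unadjusted p under 0.05, 4 of the 97 were higher (5.95% of all genes) and 2 were lower (5.89% of all genes), shares below those of all genes. edgeR called 0, and DESeq2 called 2 higher (1.91% of all genes). Among 17 further glycan hydrolases, 1 was higher, the hyaluronidase gene Hyal1 (7.23, 21.2 and 25.7 CPM in KO and 4.45, 7.93 and 9.60 CPM in WT, fold change 1.3 ± 0.52), and 1 was lower, Arsg, given above. Among 14 further lipid and general hydrolases 12 were positive. Naaa, an acid amidase also abundant in dendritic cells, had 129, 164 and 119 CPM in KO and 77.3, 88.2 and 97.4 CPM in WT (0.65 ± 0.20, unadjusted p 0.0138, adjusted p 0.295 in edgeR), and the tripeptidyl peptidase gene Tpp1 had 0.35 ± 0.17.

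Among 25 further membrane proteins, the 2 of smallest p were Lamp3, the LAMP family member of lamellar bodies and dendritic cells, and the calcium channel gene Mcoln3. Lamp3 had 638, 149 and 403 CPM in KO and 109, 65.5 and 44.6 CPM in WT (fold change 2.44 ± 0.60, unadjusted p 0.0053, adjusted p 0.245 in edgeR and 0.00155 in DESeq2), and it also stands in the type 2 alveolar list whose sums are given above. Mcoln3 had 37.4, 6.97 and 7.22 CPM in KO and 2.00, 3.57 and 4.32 CPM in WT, with KO replicate 1 far above the rest (2.38 ± 0.76, unadjusted p 0.0183, adjusted p 0.317 in edgeR and 0.0227 in DESeq2). Without KO replicate 1 the fold change was 1.11 for Mcoln3 and 1.92 for Lamp3, and without both replicate 1 libraries it was 0.86 and 2.34. Their relatives among the members, Lamp1, Lamp2 and Mcoln1, had fold changes of -0.05, 0.06 and 0.14. Of 11 genes of enzyme sorting, 0 had an unadjusted p under 0.05, and the 2 of smallest p were the receptor genes Sort1 (0.41 ± 0.28) and M6pr (0.21 ± 0.18). Of 13 pump accessory and assembly genes, 0 did, with Rogdi at 0.44 ± 0.22 and Dmxl2 at -0.55 ± 0.35. Of 17 genes of the TFEB family and nutrient sensing 13 were negative and 0 had an unadjusted p under 0.05, with the Rag GTPase gene Rragc at -0.39 ± 0.18 and Tfe3, a relative of Tfeb, at -0.30 ± 0.17.

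At 3 mice per genotype an exact permutation test of a single gene cannot give a two-sided p below 0.10, so the p-values above rest on the spread shared across genes by the fit. Of the 51 members, 15 overlap another protein-coding gene in the annotation, Galns, Hexa, Lamp1, Grn, Npc1 and Atp6v1e1 among them, and the strand setting of the counting is not stated in the labels, so their counts may include reads of the overlapping gene.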

How the data were processed

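RNA from whole lung of 3 KO and 3 WT mice was sequenced after TRIzol extraction and NEBNext Ultra library preparation, per the labels' protocols. The authors deposited whole-number read counts per gene, not normalized, and a second table of FPKM values. The submitters' processing notes name HISAT2 2.0.4, StringTie 1.3.4d and GRCm38 but give no settings. No label explains the ending of the KO column names among the FPKM values, so these columns were used without replicate numbers.

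Genes were kept by filterByExpr (16633 of 26100) and tested two-sided with edgeR 4.0.16 in R 4.3.3 (TMM factors, robust quasi-likelihood fit, genotype only). SE is the absolute fold change over the square root of F. DESeq2 1.42.0, limma 3.58.1 (voom with and without sample weights, and log2(FPKM + 1)), other scalings, filters, a replicate block and left-out libraries were alternatives, and the code was tested on simulated data. Depth was 31052936 counts or more per library, so counting error matters only for the lowest members. The design text gives separate mice. Coordinates and exon lengths are from GENCODE M21 and promoters from RefSeq GRCm38.p6.

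The members, gene lists and role groups were chosen with earlier results of these data known. Per role group, members with the smallest unadjusted p under 0.05, filled to 2 by mean FPKM, and the pump paralogs of restricted use were to be given in every sample, and for each pathway list the 2 of smallest p. Further members were given per sample after their values were seen. Values of some genes in the pathway and marker lists are not reported here.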

Additional observations from a re-analysis of the deposited data

How the results depend on the processing

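The fold change of Hgsnat kept its sign in all 20 alternatives (-1.01 to -0.89), as did that of Grn (-0.87 to -0.55). Over the 20 members with values in every library fixed by rule, 350 of 400 alternative values kept sign and side of the threshold, 45 reversed and 5 newly passed it. Over all genes, the calls higher and lower in KO were 356 and 322 in DESeq2, 1204 and 1017 in limma-voom with sample weights, and 18 and 28 without both replicate 1 libraries, against 0 and 0 in edgeR. Members called were 0 higher and 1 lower in DESeq2 and without both replicate 1 libraries, and 2 and 4 in limma-voom with sample weights. Members at an unadjusted p under 0.05, 0 higher and 2 lower in edgeR, numbered 1 and 2 with DESeq2 size factors, a non-robust prior, limma-voom or the newer edgeR fit (added after seeing the data), 2 and 2 with total counts or in DESeq2, 4 and 6 with sample weights, 2 and 1 in each FPKM fit, and 6 and 6 without both replicate 1 libraries.

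The lipid median was 0.039 with sample weights and 0.058 in each FPKM fit, and the membrane protein median was -0.11 with sample weights and -0.11 without both replicate 1 libraries. Reversed values without both replicate 1 libraries were -0.070 for Psap, 0.47 for Npc2, -0.050 for Lamp2, 0.19 for Atp6v1g1 and -0.078 for Atp6v1e1. With sample weights they were 0.36 for Npc2, -0.040 for Lamp2, 0.18 for Atp6v1g1 and -0.050 for Atp6v1e1, and in limma-voom without weights 0.098 for Npc2 and 0.026 for Atp6v1g1. In the FPKM fits they were 0.16 for Npc2, 0.039 to 0.044 for Tfeb, 0.086 to 0.087 for Atp6v1g1 and 0.017 for Atp6v0c, with total counts 0.038 for Tfeb and 0.034 for Atp6v0c, and in Atp6v0c 2.6e-04 with DESeq2 size factors and 6.2e-04 in DESeq2. The cause was not tested.

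Leaving out each library in turn gave 0 to 1 genes called higher and 0 to 2 lower over all genes, and 0 to 2 members higher and 1 to 4 lower at an unadjusted p under 0.05. The V1 median then ranged from -0.26 to 0.49, the V0 median from -0.29 to 0.41 and the lipid median from -0.30 to 0.10, and fold changes from -0.46 to 0.80 for Npc2, 0.057 to 0.59 for Psap, -0.39 to -0.045 for Gusb, -0.58 to -0.10 for Man2b1, -0.18 to 0.054 for Lamp1, -0.050 to 0.16 for Lamp2, -0.063 to 0.061 for Tfeb, -0.49 to 0.61 for Atp6v1g1, -0.43 to 0.50 for Atp6v1e1, -0.29 to 0.16 for Atp6v0c, -0.48 to 0.75 for Atp6v0e and -1.69 to 0.50 for Atp6v0a4. A group then holds 2 libraries that share the spread of the fit.

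Deviations of KO and WT libraries of the same number from their group means correlated at 0.351, 0.350 and -0.0988. KO replicate 1 correlated best with WT replicate 1, and KO replicates 2 and 3 with another number. Deviations from a mean of 3 libraries depend on each other, so these values cannot decide whether the numbers pair the mice. No pairing is stated in the labels. With the replicate number as a block, edgeR called 0 members, 2 were higher and 3 lower at an unadjusted p under 0.05, and Npc2 (0.097) and Atp6v1g1 (0.025) reversed. Paralog shares rest on FPKM columns without KO replicate numbers, so the alternatives were not run on them. Depth limits only Atp6v1b1, Atp6v1g3, Atp6v1e2 and Atp6v1fnb, which had 0 counts in some or all libraries.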
